A study of Mus with 17 samples.

Results

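The genes described here are the platelet-derived growth factor (PDGF) ligands Pdgfa, Pdgfb, Pdgfc and Pdgfd and their receptors Pdgfra and Pdgfrb, in whole liver of mice on a western diet or on chow. They were chosen by gene name as the complete ligand and receptor set of the family, 6 of the 24937 genes with a value. All 6 passed the filter on low counts and were among the 13204 genes tested. Bulk RNA sequencing covered 17 livers with 1 library each, all from male C57BL6/JBomTac mice, an inbred strain. The western diet group comprised 8 mice that ate a western diet from SDS and drank water containing 42 g/L fructose over 52 weeks, which the labels call advanced NASH, a fatty liver disease with inflammation. The chow group comprised 9 mice matched for age that ate altromin chow and drank water without fructose. Food and water were freely available to both groups under a daily cycle of light and dark, and all mice were fasted overnight at the end. Diet and fructose were changed together, so their parts in a difference cannot be told apart, and the pulverised organ holds every cell type of the liver.

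PDGFs are dimeric growth factors that act through receptor tyrosine kinases on cells of mesenchymal origin. PDGF-A and PDGF-B are trimmed by furin-like convertases inside the cell, whereas PDGF-C and PDGF-D are released with an inhibitory CUB domain that proteases such as the plasminogen activators remove outside the cell. The alpha receptor binds the A, B and C chains, and the beta receptor binds mainly the B and D chains. In the liver, the receptors are known from hepatic stellate cells, the pericytes of the sinusoid, and from portal fibroblasts. PDGF-B is known as a strong mitogen for activated stellate cells, and platelets, endothelial cells and macrophages are known sources of PDGFs.

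The libraries held 3604212 to 9071908.5 counts, with values above 0 for 16120 to 17853 genes, and 3 counts corresponded to 0.314 to 0.850 CPM, the counts scaled to a common library total. The 7 hepatocyte markers listed were above 0 in every library, and albumin (Alb) averaged 3579 ± 811 CPM in the 8 western diet livers and 4670 ± 464 CPM in the 9 chow livers (SD). Transcripts of pancreatic enzymes stood apart in western diet replicate 5 and chow replicate 2, where 10 markers summed to 4720 and 14760 CPM against a median of 187.8 and 206.6 CPM in the respective diets. The results below are therefore also given without these libraries where a call changed. Core clock genes varied within both diets, and 4 of 15 fell (Hlf, Tef, Cry2 and Clock, named after their values were seen). The call for Tef was lost without chow replicate 9 (adjusted p = 0.0513 in edgeR). It was also lost with libraries scaled by size alone (adjusted p = 0.0705 in edgeR). With the first principal component of the clock genes as a covariate all 6 PDGF genes still rose.

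Every PDGF ligand and both receptors were higher in western diet livers. The rises ran from 1.41-fold for Pdgfa to 2.70-fold for Pdgfrb at an adjusted p under 0.05 in edgeR's quasi-likelihood test with Benjamini-Hochberg adjustment over all tested genes. Of all 13204 genes tested, 24.8% rose and 23.6% fell by the same criterion, which is the background for the 6 of 6. The median log2 difference of the PDGF genes, western diet minus chow, was 1.14, against -0.0091 over all tested genes. When libraries were scaled by size alone and not by TMM factors, the median of all genes was 0.118 and rises made up 73.5% of all calls rather than 51.2%, and each PDGF gene also rose there. In bulk RNA, more cells of a type and more RNA per cell cannot be told apart.

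Pdgfa, which encodes the A chain that signals through the alpha receptor, ranged from 8.65 to 13.4 CPM on western diet with a median of 10.4, and from 5.88 to 10.7 CPM on chow with a median of 6.997. The diets overlapped, because chow replicates 2 and 6 reached the lower western diet livers, and 4 of 8 western diet livers exceeded every chow liver. The mean was 10.6 ± 1.52 CPM (SD, n = 8) against 7.48 ± 1.61 CPM (SD, n = 9), a log2 difference of 0.50 ± 0.13 (SE; edgeR, adjusted p = 0.00327). This was the smallest rise of the family, and 18.6% of tested genes had a larger log2 difference.

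Pdgfb, which encodes the B chain that binds both receptors, lay between 8.83 and 16.1 CPM on western diet with a median of 13.4, and between 3.28 and 6.65 CPM on chow with a median of 5.98. The lowest western diet liver, replicate 3, was above the highest chow liver. Means of 13.3 ± 2.37 CPM (SD, n = 8) and 5.35 ± 1.34 CPM (SD, n = 9) gave a log2 difference of 1.32 ± 0.16 (2.50-fold; edgeR, adjusted p = 1.18e-06). The gene was covered by 24 to 45.5 counts per chow library, where counting alone gives an error of 20.4% at the lowest count, against a spread between chow livers of 25.1%.

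Pdgfc, the ligand of the alpha receptor that needs removal of its CUB domain, ranged from 14.1 to 38 CPM on western diet with a median of 27.3, and from 9.15 to 14.4 CPM on chow with a median of 11.8. Replicate 3 was the only western diet liver within the chow range, and the other 7 were above every chow liver. The log2 difference was 1.23 ± 0.14 (2.35-fold, 26.9 ± 7.04 against 11.5 ± 1.65 CPM, SD, n = 8 and 9; edgeR, adjusted p = 1.11e-06).

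Pdgfd, the CUB-bearing ligand of the beta receptor, ranged from 5.95 to 13.3 CPM on western diet with a median of 9.33, and from 3.14 to 5.76 CPM on chow with a median of 4.82. Western diet replicates 1 and 3 lay just above the highest chow liver, whereas replicates 2, 5 and 8 were above 12 CPM. The log2 difference was 1.05 ± 0.17 (2.07-fold, 9.68 ± 2.72 against 4.72 ± 0.844 CPM, SD, n = 8 and 9; edgeR, adjusted p = 3.68e-05). Chow libraries held only 20 to 46.5 counts of this gene, and counting alone gives an error of 22.4% at the lowest.

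Pdgfra, the alpha receptor, ranged from 31.5 to 70.8 CPM on western diet with a median of 43.1, and from 17.3 to 27.9 CPM on chow with a median of 23.2. The groups did not overlap, with replicates 1 and 3 lowest and replicate 5 highest among western diet livers. Its log2 difference was 0.99 ± 0.15 (1.99-fold, 44.8 ± 13.0 against 22.7 ± 3.96 CPM, SD, n = 8 and 9; edgeR, adjusted p = 2.20e-05). Replicate 5, the highest, was also the western diet library with pancreatic transcripts, and the rise was 0.91 on the log2 scale without it and chow replicate 2.

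Pdgfrb, the beta receptor that marks pericytes and stellate cells, ranged from 26.0 to 76.6 CPM on western diet with a median of 52.9, and from 13.9 to 25.5 CPM on chow with a median of 17.9. Western diet replicate 3 was just above the highest chow liver, and replicates 2 and 5 were highest. With 52.8 ± 15.8 CPM (SD, n = 8) against 19.7 ± 3.93 CPM (SD, n = 9), this was the steepest rise of the family, 1.43 ± 0.17 on the log2 scale (2.70-fold; edgeR, adjusted p = 2.27e-06). A larger log2 difference was found in 4.06% of tested genes.

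**Figure D1:**
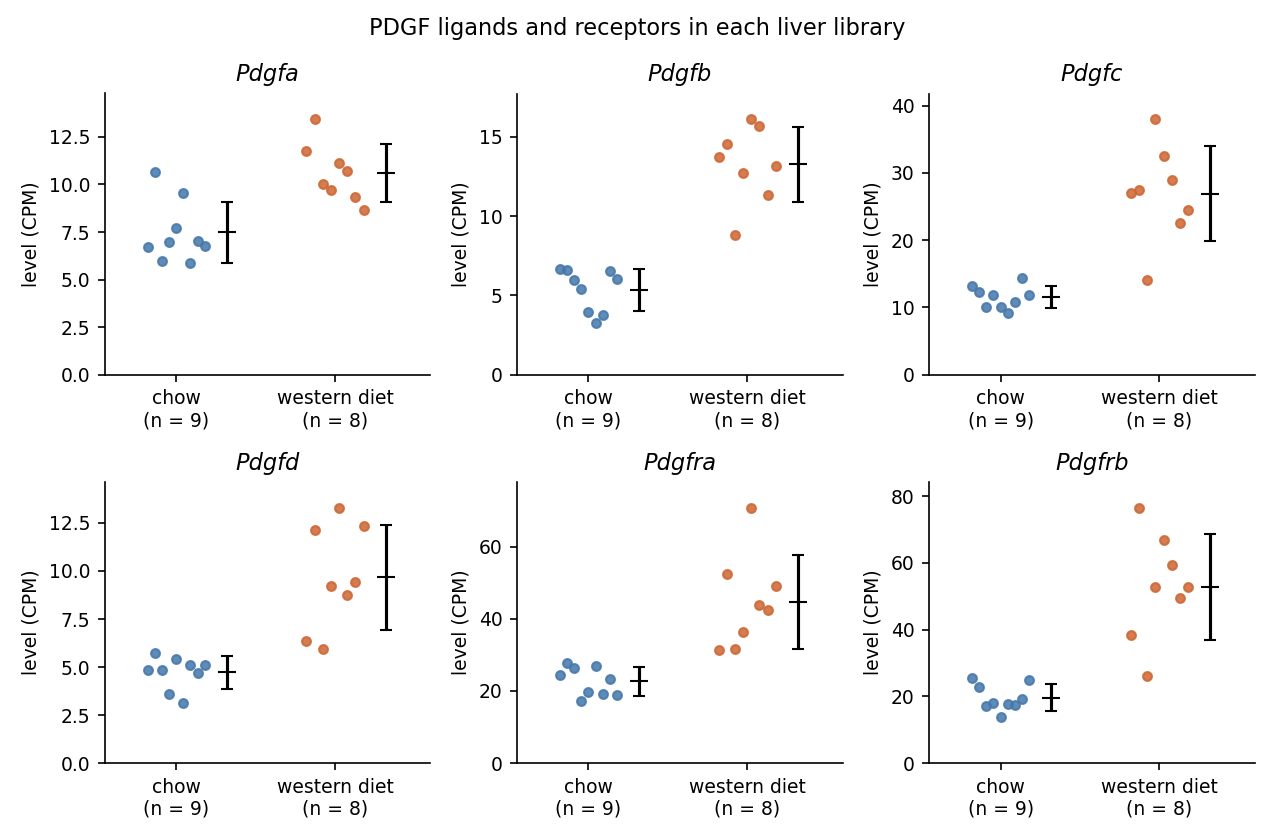
Level in CPM (vertical axes, each from 0) of the 6 PDGF genes in each chow (n = 9) and western diet (n = 8) liver; points are livers, and bars give the mean and SD. Pdgfb, Pdgfd, Pdgfra and Pdgfrb show no overlap between the diets, whereas Pdgfc overlaps through 1 western diet liver and Pdgfa through several livers.

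The diets thus did not overlap for 4 of the 6 genes, Pdgfb, Pdgfd, Pdgfra and Pdgfrb, while 6.98% of tested genes had all western diet libraries above all chow libraries. A log2 difference of at least 1 with an adjusted p under 0.05 (edgeR) was reached by 4 of 6, compared with 8.96% of tested genes. The 4 were Pdgfb, Pdgfc, Pdgfd and Pdgfrb. The spread between western diet livers was wider for the receptors and the CUB-bearing ligands, with coefficients of variation of 26.2% (Pdgfc), 28.2% (Pdgfd), 29.0% (Pdgfra) and 29.9% (Pdgfrb), than for Pdgfa (14.3%) and Pdgfb (17.9%); these coefficients were not tested against each other. In chow livers they were 14.3% to 25.1%.

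The same livers were low or high in several PDGF genes. Each western diet liver was placed by its log2 CPM, with 0% at the average of the chow livers. The 100% point was the average of the western diet livers without the liver being placed. Leaving a liver out of its own 100% point moves its percentage further from 100%. On this scale western diet replicate 3 stood at a median of 40.8% over the 6 genes, from 23.5% for Pdgfc to 85.4% for Pdgfa. Replicates 2 and 5 stood at 140% and 134%, and the other 5 livers between 86.7% and 112%. Replicate 3 also had the highest sum of 9 platelet and megakaryocyte markers, 34.02 CPM, whereas the other western diet libraries started at 10.01 CPM and chow libraries held 7.672 to 12.52 CPM. Among western diet livers it was also highest in the macrophage (1633 CPM) and hepatocyte sums (12650 CPM) and lowest in the portal fibroblast and mesothelial (89.98 CPM) and bile duct sums (70.83 CPM). Their part in its PDGF levels was not tested.

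In RefSeq's annotation of mm10 (GRCm38.p6) the 6 genes are spread over 5 chromosomes and no pair of them are neighbours. Pdgfa lies on chromosome 5 from 138976014 to 139000792 and Pdgfra on the same chromosome from 75151322 to 75198206. Pdgfb lies on chromosome 15 from 79995865 to 80024614, Pdgfc on chromosome 3 from 81036416 to 81214040, Pdgfd on chromosome 9 from 6168363 to 6534284 and Pdgfrb on chromosome 18 from 61045127 to 61085067. Values cover whole genes, so exons or isoforms cannot be separated.

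Genes that overlap or flank a PDGF gene could share its reads, since the strand setting of the counting is not given in the sources used here. Ddi1, within the span of Pdgfd, and the microRNA gene Mir7213, within that of Pdgfb, were at 0 in all 17 libraries. Mir7025, within Pdgfra, averaged 0.118 ± 0.126 CPM against 0.101 ± 0.101 CPM on chow (SD, n = 8 and 9), both below the level of 3 counts. Prkar1b, the nearest coding gene of Pdgfa at 16511 bp, rose by 0.89 ± 0.33 on the log2 scale (edgeR, adjusted p = 0.0313), a call lost without any of 6 single libraries (western diet replicates 3, 5 and 6, chow replicates 3, 4 and 9; adjusted p up to 0.0705). Cbx7, the nearest of Pdgfb at 24721 bp, differed by -0.19 ± 0.13 (adjusted p = 0.231). Gm52351, the nearest coding gene of Pdgfrb at 413 bp, was not analysed here.

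Because all 6 genes rose, ratios of counts within a library were used to ask whether they rose to the same extent; 8 ratios were compared between diets with a two-sided exact permutation test over all 24310 labellings and Benjamini-Hochberg adjustment over the 8. Among ligands, Pdgfc gained on Pdgfa. The log2 ratio of Pdgfc to Pdgfa ran from 0.489 to 1.96 on western diet (median 1.35) and from -0.0627 to 1.02 on chow (median 0.752), and 7 of 8 western diet livers were above every chow liver. The difference was 0.67 on the log2 scale, or 1.59-fold (exact permutation, p = 0.00374, adjusted p = 0.0150); without the libraries with pancreatic transcripts it was 0.58 with an adjusted p of 0.0541 (exact permutation). The ratio of Pdgfd to Pdgfb differed by -0.33 (exact permutation, adjusted p = 0.112).

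Between the receptors, the log2 ratio of Pdgfrb to Pdgfra was 0.22 ± 0.295 on western diet against -0.21 ± 0.345 on chow (SD, n = 8 and 9). The beta receptor had gained by 0.43 on the log2 scale (exact permutation, p = 0.0175, adjusted p = 0.0323), and 3 of 8 western diet livers were above every chow liver. The call was lost, with adjusted p up to 0.0649 and differences of 0.38 to 0.44, when any of 10 single libraries was left out (western diet replicates 1, 2, 4, 6 and 7, chow replicates 2, 3, 5, 6 and 7).

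Ligands were set against their receptors in the same way. For Pdgfb, a main ligand of the beta receptor, the log2 ratio of Pdgfb to Pdgfrb was -1.94 ± 0.303 (SD, n = 8) against -1.88 ± 0.299 (SD, n = 9), a difference of -0.060 that did not pass (exact permutation, p = 0.683). Pdgfd fell behind Pdgfrb, with a log2 difference of -0.39 (exact permutation, adjusted p = 0.0323) and 4 of 8 western diet livers below every chow liver. Pdgfa fell behind Pdgfra, with a difference of -0.44 (exact permutation, adjusted p = 0.0323). The call for Pdgfd over Pdgfrb was lost without any of western diet replicates 1, 2, 4, 5, 6 and 7 and chow replicates 2, 3, 5 and 7 (adjusted p up to 0.0698). That for Pdgfa over Pdgfra was lost without any of western diet replicates 2, 4, 5, 6, 7 and 8 and chow replicates 2, 4, 5, 6, 7 and 9 (adjusted p up to 0.0690). Pdgfc over Pdgfra differed by 0.23 (exact permutation, p = 0.247); the western diet livers spanned -1.16 to 0.0633 and the chow livers -1.55 to -0.545.

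**Figure D2:**
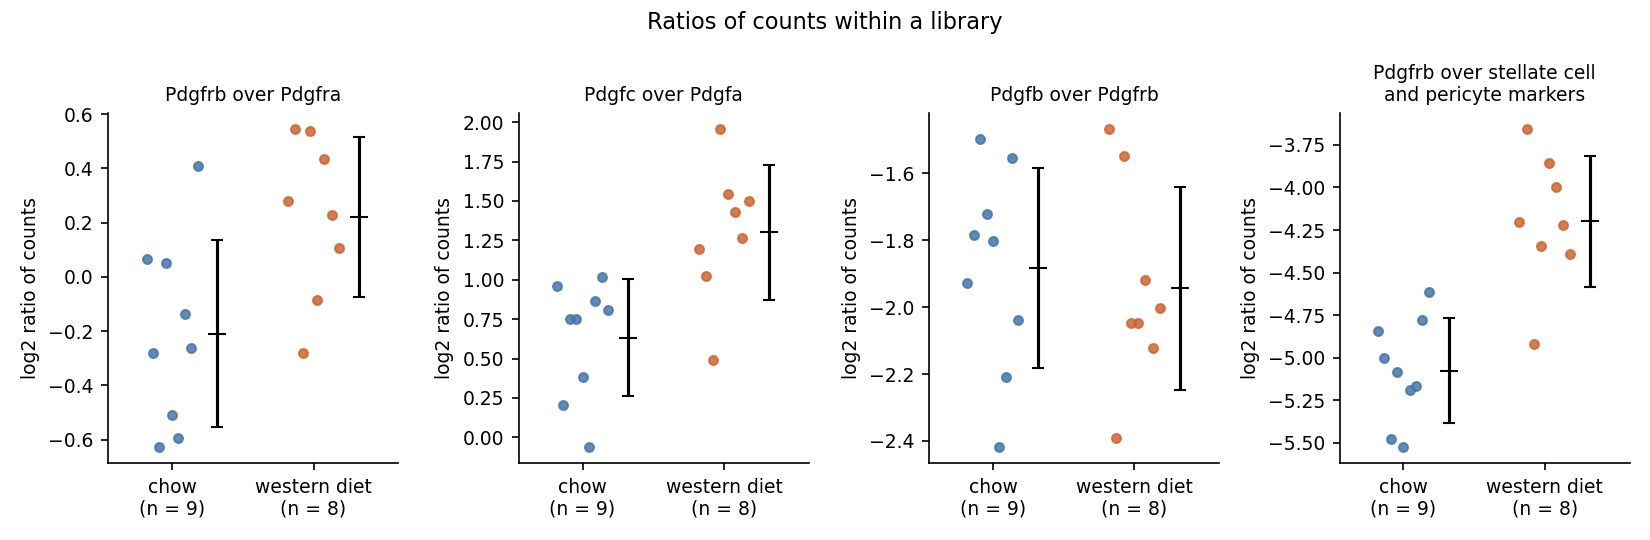
Log2 ratios of counts within a library (vertical axes) for 4 of the 8 ratios, by diet (n = 9 and 8); points are livers, bars give the mean and SD. Pdgfc over Pdgfa and Pdgfrb over the summed stellate cell and pericyte markers each have 7 of 8 western diet livers above every chow liver, whereas Pdgfb over Pdgfrb differs by -0.060.

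Markers of the cells known to carry the receptors were also higher. Of 14 tested stellate cell and pericyte markers, 9 rose and none fell, or 64.3% and 0% beside 24.8% and 23.6% of all tested genes. Their median log2 difference was 0.57. Cytoglobin (Cygb) rose 2.56-fold. The summed level of all 15 listed was 705.7 to 1111 CPM on western diet (median 957.5) and 533.7 to 766.2 CPM on chow (median 645.3), and all 15 were above 0 in every library. Pdgfrb rose beyond this sum, by 0.88 on the log2 scale or 1.84-fold (exact permutation, p = 2.88e-04, adjusted p = 0.00230), with all western diet livers except replicate 3 above every chow liver. Ecm1 made up 14.5% to 31.1% of the sum, and without it the gain was 0.73 (exact permutation, p = 0.00103).

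The other PDGF genes were set against the same sum, and all 6 against the sum of 10 endothelial markers, as an addition made after the data were seen (11 ratios, adjusted together). Over the stellate cell and pericyte sum, Pdgfb gained 0.82, Pdgfc 0.68, Pdgfd 0.49 and Pdgfra 0.45 on the log2 scale, with adjusted p-values from 5.28e-04 to 0.00337 (exact permutation). Pdgfa differed by 0.0091 and did not pass (exact permutation, p = 0.955). Over the endothelial sum, which was 338.4 to 622.6 CPM on western diet and 399.5 to 501.6 CPM on chow, gains ran from 0.36 for Pdgfa (exact permutation, adjusted p = 0.0485) to 1.23 for Pdgfrb. In 3 of these ratios, those of Pdgfb, Pdgfra and Pdgfrb, the diets did not overlap, and p was 4.11e-05, the smallest this test can give.

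Markers of other cell types were read beside the same background, 24.8% of all tested genes rising and 23.6% falling. Macrophage markers, of which 10 of 10 rose, summed to 975.8 to 1633 CPM on western diet and 414.7 to 641.5 CPM on chow. Trem2, a receptor of lipid-associated macrophages, rose 7.13-fold and Gpnmb 6.39-fold. Of 10 portal fibroblast and mesothelial markers 7 rose, led by dermatopontin (Dpt, 3.03-fold) and the ectonucleotidase Entpd2 (2.78-fold). The mesothelial markers Msln and Upk3b and the fibroblast marker Pi16 differed by -0.73 ± 0.34, -0.44 ± 0.41 and -0.41 ± 0.32 and did not pass. The sum of all 11 listed was 89.98 to 217 CPM on western diet and 40.69 to 121 CPM on chow.

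Among 10 endothelial markers 3 rose and 1 fell, or 30% and 10% beside 24.8% and 23.6% of all tested genes. Lyve1 was 2.84-fold higher and the sinusoidal lectin Clec4g was lower by 0.51 on the log2 scale. Vwf was 1.46-fold higher, a call lost with the clock component as covariate or western diet replicate 4 left out (adjusted p up to 0.0553 in edgeR). Of 5 smooth muscle markers tested, Tagln and Smtn rose; Lmod1, Acta2 and Myh11 differed by 0.45 ± 0.36, -0.09 ± 0.43 and -0.48 ± 0.39 and did not pass. Acta2, the actin of smooth muscle and of myofibroblasts, averaged 10.99 ± 5.63 CPM (SD, n = 8) and 11.8 ± 11.6 CPM (SD, n = 9), with medians of 9.54 and 6.94 CPM and 1 chow liver at 42.0 CPM. Its sign turned in 6 of 29 alternatives, with a log2 difference of 0.46 without chow replicate 2, which also had the highest smooth muscle sum (155.7 CPM), and of 0.57 without both libraries with pancreatic transcripts; it passed in neither. Bile duct markers rose in 6 of 7, led by Cftr (8.498-fold) and Ehf (3.34-fold). Cftr held 0 to 6.5 counts in chow libraries against 7.5 to 43 on western diet, so that its fold rests on very few chow counts, and it passed the filter in 19 of 29 alternatives. Among 7 hepatocyte markers 3 fell, with Hnf4a and Alb lower by 0.39 and 0.38 on the log2 scale; 5 fell without western diet replicate 1 or 3, and 1 at an adjusted p under 0.01.

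Only 2 of 9 platelet and megakaryocyte markers passed the filter on low counts. Pf4 rose 3.09-fold on few counts, 3 to 17 in chow libraries and 11 to 45.5 on western diet, while Itga2b differed by 0.11 ± 0.17. None of the 9 was at 0 in all libraries and 5 were at 0 in at least 1. The number that rose rests on the filter: 5 of the markers rose with no low count filter, 4 in DESeq2 and 2 with CPM of at least 1 in 8 libraries. The part of any of these cell types in the PDGF differences was not tested.

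Within a diet, 42 relations were computed, 15 between PDGF genes and 6 with the stellate cell and pericyte sum in each diet, with exact permutation over all orders of the libraries and one adjustment over all 42. None passed in either diet, and 8 had an unadjusted p under 0.05. In western diet livers the highest r were those of Pdgfd with each receptor: Pdgfd and Pdgfra had Pearson r = 0.914 and Spearman rho = 0.881 (n = 8, exact permutation p = 0.00174, adjusted p = 0.0729), and r was 0.846 without the 2 livers farthest from the median of Pdgfd. Pdgfd and Pdgfrb had r = 0.869 and rho = 0.738 (n = 8, exact permutation, adjusted p = 0.0750), which became 0.542 without replicates 3 and 1.

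Pdgfb and its receptor Pdgfrb had r = 0.825 and rho = 0.786 on western diet (n = 8, exact permutation, adjusted p = 0.136), and r was 0.395 without replicates 3 and 5, the farthest in Pdgfb. On chow this pair had r = 0.658 and rho = 0.75 (n = 9, exact permutation, adjusted p = 0.238), and r was 0.803 without replicates 6 and 7. Pdgfb and Pdgfc had r = 0.803 and rho = 0.643 on western diet (n = 8, exact permutation, adjusted p = 0.152) and r = 0.794 and rho = 0.867 on chow (n = 9, exact permutation, adjusted p = 0.136). Without the 2 farthest livers these were 0.246 and 0.692. Over the 15 pairs of PDGF genes, r was 0.0209 to 0.914 with a median of 0.609 on western diet, and -0.136 to 0.794 with a median of 0.185 on chow; the diets' relations were not tested against each other.

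**Figure D3:**
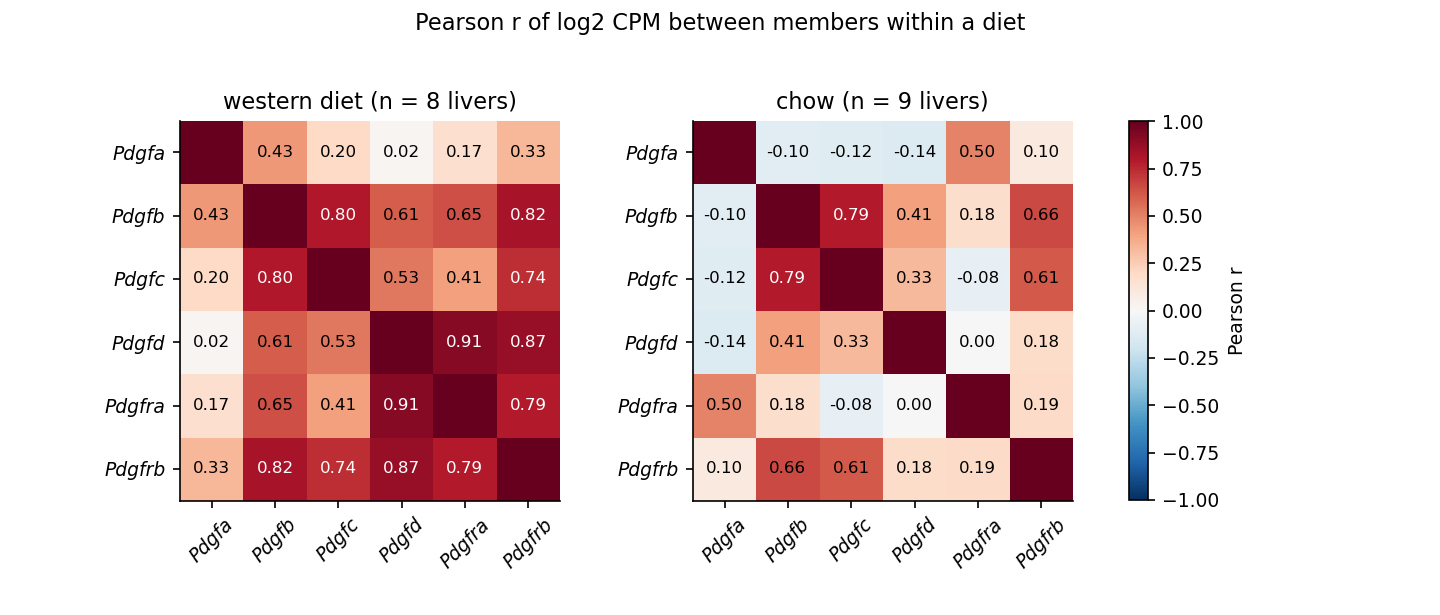
Pearson r of log2 CPM for each pair of PDGF genes in western diet (left, n = 8) and chow livers (right, n = 9), coloured from -1 to 1. On western diet all 15 pairs are positive and 11 of 15 are positive on chow, but no pair passed the adjustment over 42 relations.

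Genes whose level followed each PDGF gene most closely were sought over all 17 livers, after the mean of each diet had been subtracted, among 13020 tested genes; the 3 with the highest Pearson r are given as a description, with no test. The closest to Pdgfrb were Map4, a microtubule-associated protein (r = 0.915, rho = 0.882), the growth factor response gene Egr2 (r = 0.902, rho = 0.855) and the protocadherin Pcdhga5 (r = 0.893, rho = 0.904). Without the 2 livers farthest from the median of Pdgfrb after this subtraction, these were 0.820, 0.851 and 0.855. Closest to Pdgfra were the matrix protein Svep1 (r = 0.891, rho = 0.900), the methyltransferase Setd7 (r = 0.873, rho = 0.936) and Mamdc2 (r = 0.872, rho = 0.860), with r of 0.891, 0.809 and 0.767 without the farthest livers.

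For Pdgfd the closest were the secreted protease Htra1 (r = 0.895, rho = 0.880), the transcription factor Glis3 (r = 0.875, rho = 0.882) and the collagen chaperone Serpinh1 (r = 0.864, rho = 0.775), with 0.863, 0.875 and 0.773 without the farthest livers. Pdgfb lay closest to Trim28, a corepressor of transcription (r = 0.874, rho = 0.828), to the bile duct keratin Krt7 (r = 0.868, rho = 0.853) and to Igfbp7 (r = 0.846, rho = 0.784), with 0.766, 0.740 and 0.775.

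Pdgfc lay closest to Eif4e3 (r = 0.848, rho = 0.770), to osteopontin (Spp1, r = 0.847, rho = 0.632) and to Arvcf (r = 0.836, rho = 0.760); without western diet replicates 3 and 4 these were 0.684, 0.571 and 0.704. Pdgfa had the lowest values, with the interleukin receptor chain Il22ra1 (r = 0.801, rho = 0.679), Fignl2 (r = 0.757, rho = 0.672) and Nol12 (r = 0.745, rho = 0.635), and 0.643, 0.707 and 0.589 without chow replicates 2 and 6. The livers share depth and scaling in these relations.

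Genes that process, bind or relay PDGF signals were read from lists drawn up by role, with earlier results of these data known. In the list of ligand processing and binding, 4 of 9 tested genes rose and 3 fell, at a median of -0.106 on the log2 scale. The shares were 44.4% and 33.3%, beside 24.8% and 23.6% of all tested genes. Tissue plasminogen activator (Plat), a protease known to activate PDGF-C, and matriptase (St14), a protease of epithelial cell surfaces, rose most. Plat ranged from 3.16 to 17.6 CPM on western diet (median 10.7) and from 0.718 to 6.85 CPM on chow (median 2.12), overlapping between diets, and rose 4.17-fold (log2 2.06 ± 0.35; edgeR, adjusted p = 1.05e-04). St14 rose 2.75-fold (log2 1.46 ± 0.38; edgeR, adjusted p = 0.00364), although chow replicate 2 reached 12.2 CPM, close to the highest western diet liver at 12.3 CPM; without this library, which held pancreatic transcripts, the log2 difference of St14 was 2.06.

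The other rises were named after their values were seen, those of urokinase (Plau), known to activate PDGF-D, and of the matrix protein Sparc, which binds PDGF-B. Plau was at 9.31 to 22.0 CPM on western diet (median 14.9) and 3.68 to 8.55 CPM on chow (median 6.05), with no overlap, and rose 2.45-fold (log2 1.29 ± 0.17; edgeR, adjusted p = 5.06e-06). Sparc rose 1.51-fold. The convertases that act on the A and B chains inside the cell went the other way, with falls of 0.40 ± 0.06 for Pcsk7, 0.35 ± 0.09 for Pcsk6 and 0.30 ± 0.07 for Furin, the last named after its values were seen and lost with library size alone (adjusted p = 0.0568). Pcsk5 and the protease inhibitor Pzp differed by -0.18 ± 0.08 and -0.11 ± 0.12 and did not pass, and A2m was not tested.

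Of 10 receptor partners, 4 rose and none fell, or 40% and 0% beside 24.8% and 23.6% of all tested genes, at a median of 0.155. Cd44, a hyaluronan receptor that can associate with the beta receptor, rose 2.56-fold, from 16.0 to 31.8 CPM on chow to 45.2 to 96.1 CPM on western diet, with no overlap. Pdgfrl, which resembles the receptors but has no kinase domain, rose 2.09-fold at a low level, 2.15 ± 0.983 CPM (SD, n = 8) against 1.09 ± 0.349 CPM (SD, n = 9); it passed the count filter in 18 of 29 alternatives and rose in each. The integrin chains Itgb3 and Itgav, named after their values were seen, rose by 0.49 ± 0.20 and 0.46 ± 0.10; the adjusted p of Itgb3 was 0.0494 (edgeR), and its call was lost in 21 of 29 alternatives. In all, 2 partners rose without the libraries with pancreatic transcripts, and also without any of western diet replicates 5, 7 and 8 and chow replicates 3, 5 and 7.

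The relays that carry the signal inside the cell did not move one way. Of 32, 8 rose and 15 fell, at a median of -0.0849, whereas with library size alone 10 rose and 8 fell. The share that rose, 25.0%, was that of all tested genes (24.8%), and 46.9% fell against 23.6%. Src, a kinase that docks on the activated receptors, rose 2.94-fold (log2 1.56 ± 0.21; edgeR, adjusted p = 5.20e-06), from 6.54 ± 2.50 CPM (SD, n = 9) to 19.2 ± 4.77 CPM (SD, n = 8), and the adaptor Nck2 rose by 0.75 ± 0.20. The exchange factor Sos1, which activates Ras, fell by 0.63 ± 0.10 and the kinase Braf by 0.48 ± 0.10 on the log2 scale.

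The diets did not overlap for 5 relays, of which 4 were lower and 1 was higher in every western diet liver than in any chow liver, beside 5.05% and 6.98% of all tested genes. Sos1, the phosphatase Ptpn11 and the kinase Map2k2 were among the lower, and the kinase Mapk3 was the higher; all but Sos1 were named after their values were seen. Mapk3 rose by 0.35 ± 0.05, and kept this direction in all 29 alternatives (0.32 to 0.48).

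Among 17 genes that dampen the signal, 3 rose and 2 fell, or 17.6% and 11.8% beside 24.8% and 23.6% of all tested genes, at a median of 0.123, and with library size alone 6 rose and none fell. The ERK phosphatase Dusp6 rose by 0.87 ± 0.15 and the inhibitor Spry1 by 0.48 ± 0.16, whereas the phosphatase Acp1 fell by 0.22 ± 0.06, a fall that did not pass with library size alone.

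Immediate early genes are the first transcripts that growth factors induce in cultured cells. Of 15 tested, 9 rose and none fell, or 60% and 0% beside 24.8% and 23.6% of all tested genes. All 15 log2 differences were above 0, with a median of 1.08. Egr2 rose 5.32-fold (log2 2.41 ± 0.25; edgeR, adjusted p = 2.21e-07), from 0.630 to 1.79 CPM on chow to 2.42 to 8.28 CPM on western diet, with no overlap. Chow libraries held 4 to 11.5 counts of Egr2 against 13 to 68 on western diet, so its fold rests on few chow counts. Fosb rose 4.81-fold and overlapped; with 0 to 12.5 counts in chow libraries its fold rests on few counts, and it passed the filter in 19 of 29 alternatives. Klf6 and Ier3, named after their values were seen, rose 2.96-fold and 3.08-fold with no overlap. Fos and Egr1 spread widely between livers, at 10.2 to 104 and 32.8 to 419 CPM on western diet; Egr1 passed with a log2 difference of 1.26 ± 0.49 (edgeR, adjusted p = 0.0449), which was 0.51 without western diet replicate 6 (adjusted p = 0.197). The call was also lost without western diet replicate 5 or 7 or any of chow replicates 3 to 8, in limma-voom, with no low count filter and with the clock component as covariate. Fos did not pass (edgeR, adjusted p = 0.0697).

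**Figure D4:**
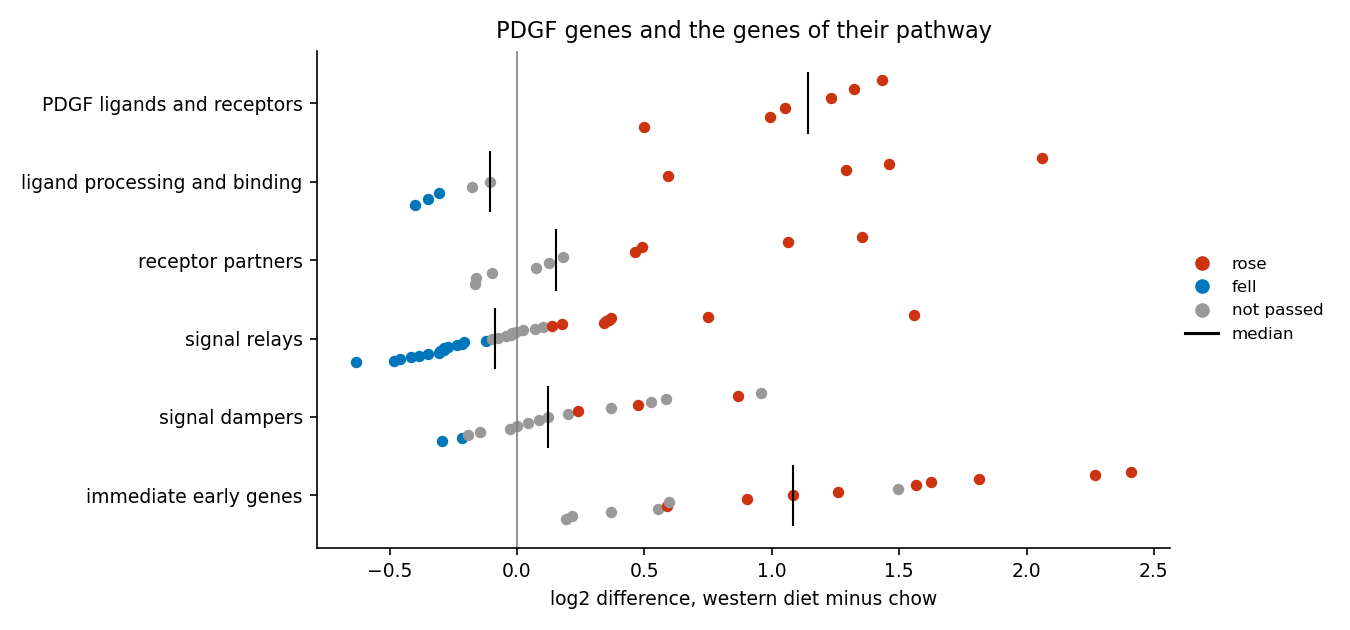
Log2 difference, western diet minus chow (horizontal axis), of each tested gene of the PDGF family and of 5 pathway lists; points are genes coloured by call, and black lines mark medians. The PDGF genes lie at 0.50 to 1.43, immediate early genes all lie above 0, and the relays spread to both sides, 8 up and 15 down (10 and 8 with library size alone).

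The receptors nearest to the PDGF receptors in sequence, the colony stimulating factor, stem cell factor, Flt3 and vascular endothelial growth factor (VEGF) receptors, did not share a direction. Of these 6 receptors 3 rose and 2 fell, or 50% and 33.3% beside 24.8% and 23.6% of all tested genes. Flt3, a receptor of dendritic cell precursors, rose 2.69-fold, and Csf1r, the receptor that sustains macrophages, rose 2.14-fold to 164 to 266 CPM, above the chow range of 66.0 to 140 CPM. Chow libraries held 2.5 to 16.5 counts of Flt3 against 8 to 52.5 on western diet. Its fold thus rests on few chow counts, and its levels overlapped between the diets. Flt4, a VEGF receptor of lymphatic vessels named after its values were seen, rose by 0.42 ± 0.15, a call lost without western diet replicate 4 or 8 and with the clock component as covariate (adjusted p up to 0.0614).

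Kdr, the main VEGF receptor of endothelium, was lower in every western diet liver, at 41.1 to 106 CPM against 112 to 143 CPM, a fall of 0.67 ± 0.14 (edgeR, adjusted p = 5.25e-04). Kit fell by 0.49 ± 0.16, a call lost with library size alone, and Flt1 differed by -0.17 ± 0.15 and did not pass. Of 8 related ligands 4 rose and none fell, or 50% and 0% beside 24.8% and 23.6% of all tested genes. The Csf1r ligand Il34 (1.84-fold) and the Flt4 ligand Vegfc (1.77-fold) rose most. Csf1 and Flt3l, named after their values were seen, rose by 0.71 ± 0.08 and 0.49 ± 0.13. Vegfa and Vegfb, which encode growth factors of the same superfamily, differed by -0.18 ± 0.09 and 0.18 ± 0.10 and did not pass. Vegfd and Kitl, also named after their values were seen, differed by -0.48 ± 0.21 and 0.34 ± 0.17 and did not pass either.

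**Figure D5:**
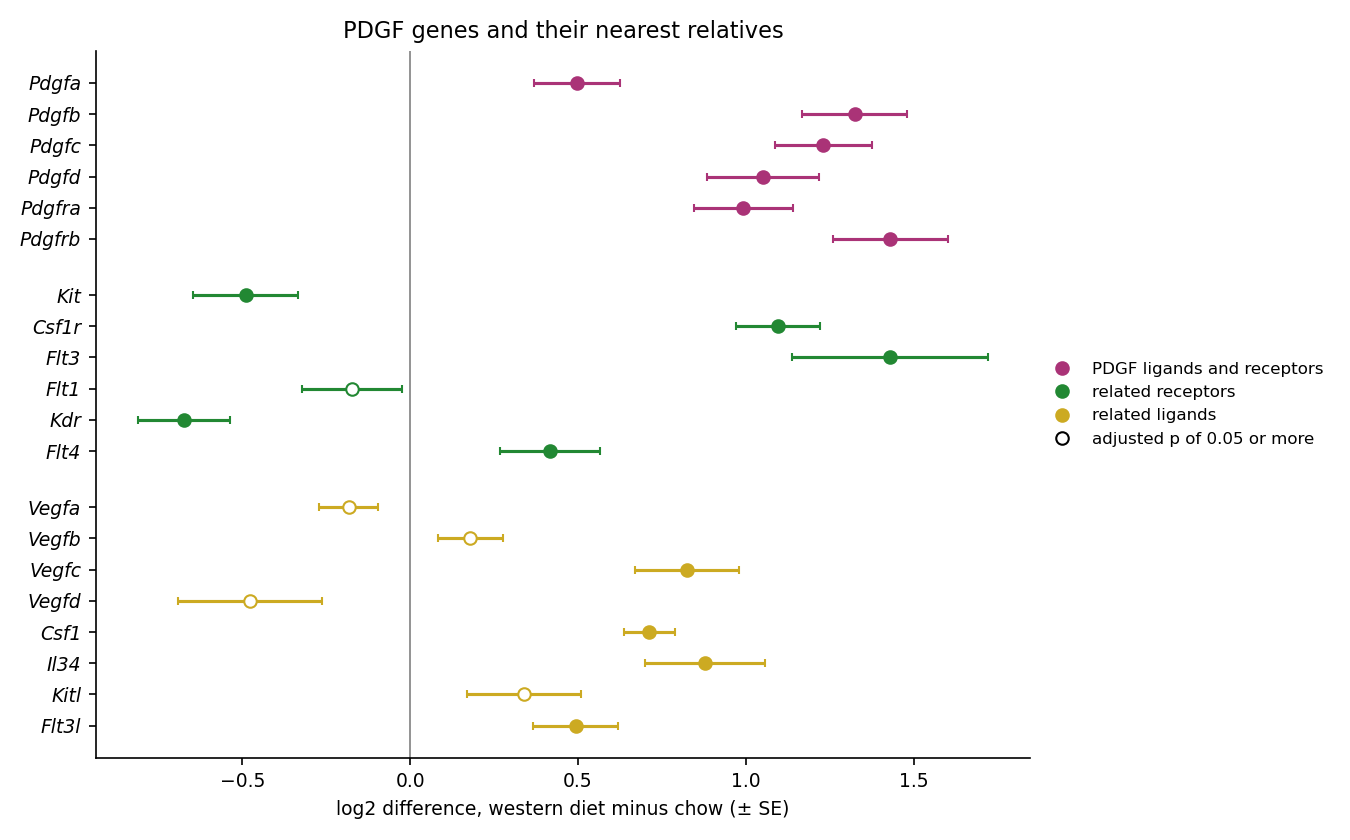
Log2 difference with SE, western diet minus chow (horizontal axis), of the 6 PDGF genes, 6 related receptors and 8 related ligands; open symbols have an adjusted p of 0.05 or more. The PDGF genes all lie to the right of 0, whereas Kdr and Kit lie to the left.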

How the data were processed

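Whole liver RNA of 17 mice (8 western diet, 9 chow) was measured. The authors deposited unscaled expected counts per gene for each library, all of them multiples of 0.5 (29.4% to 33.7% not whole). The submitters' processing notes name mm10, HOMER, MultiQC, FastQC and STAR (2.4.1c); options for counting, strand or multiply mapped reads were not given in the sources used here. Per the labels' protocols, RNA was purified on RNeasy columns and made into NEBNext Ultra libraries read from both ends. The treatment label gave the diet; the source name reads western diet for every sample. Of 24940 genes, 3 had no value and were left out.

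Counts were rounded. Genes were kept by filterByExpr and tested with edgeR 4.0.16 in R 4.3.3 (TMM factors, robust quasi-likelihood fits on diet, Benjamini-Hochberg adjustment at 0.05). The common dispersion was 0.036. CPM use TMM-scaled totals of tested genes, and relations used log2 CPM with a prior count of 1. Values after ± are the SD between livers where so marked. All others are the SE of the log2 difference, its size divided by the square root of edgeR's F statistic. The level of 3 counts, which a count of 0 allows, covers counting error only. No 2 libraries held identical values. Each was taken as 1 independent mouse, so p-values for diet set the difference against the variation between mice. Ratios had 0.5 counts added. Ratios, relations and plots were made in Python 3.11.15 (matplotlib 3.10.9, pandas 2.3.3, scipy 1.17.1, numpy 2.4.6), and steps were tested on simulated data. The PDGF genes and the 17 lists were chosen with earlier results of these data known. Named in each list were the 2 largest rises and falls among calls, and genes that did not pass where they were 3 or fewer (some are not reported here); for likeness, the 3 closest of average log2 CPM of at least 1. DESeq2 1.42.0 and limma-voom (limma 3.58.1) were among the alternatives.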

Additional observations from a re-analysis of the deposited data

How the results depend on the processing

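All 6 PDGF genes rose in each of 29 alternatives: RLE size factors, library size alone, TMM without the 50 most abundant genes, DESeq2, limma-voom, no low count filter, CPM of at least 1 in 8 libraries, no robust estimation, doubled counts, an adjusted p under 0.01, the clock component, the libraries with pancreatic transcripts left out, and each of 17 libraries left out. Log2 differences spanned 0.44 to 0.62 for Pdgfa (largest adjusted p 0.00898), 1.25 to 1.46 for Pdgfb, 1.15 to 1.36 for Pdgfc, 0.98 to 1.19 for Pdgfd, 0.87 to 1.13 for Pdgfra and 1.35 to 1.56 for Pdgfrb. With library size alone 1615 genes fell in place of 3122, 8 relays fell, 6 dampers rose and 0 fell, and 1 related receptor fell. At an adjusted p under 0.01, 1 damper rose and 1 related receptor fell. Without the libraries with pancreatic transcripts 2 receptor partners rose and 1 related ligand fell. With each library left out in turn, 2 to 4 receptor partners rose and 0 to 1 fell, 3 to 6 dampers rose (5 or 6 without western diet replicate 7 or chow replicate 2), and 0 to 1 related ligands fell (1 without western diet replicate 1 or 5 or chow replicate 2 or 6).

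Ratios were less stable. By medians in place of means, the log2 ratio, Pdgfrb over Pdgfra, differed by 0.5158 (adjusted p 0.0503, exact permutation), Pdgfa over Pdgfra by -0.5063 (the same p) and Pdgfc over Pdgfra by -0.03432. Without the libraries with pancreatic transcripts, the differences were 0.465 for Pdgfrb to Pdgfra, -0.3203 for Pdgfa to Pdgfra, -0.3939 for Pdgfd to Pdgfrb and 0.5806 for Pdgfc to Pdgfa, with adjusted p from 0.0541 to 0.113 (exact permutation), in fewer samples. With each library left out, they spanned 0.3778 to 0.5073 for Pdgfrb to Pdgfra, -0.5269 to -0.3473 for Pdgfa to Pdgfra, -0.4418 to -0.3003 for Pdgfd to Pdgfrb and -0.1281 to 0.004016 for Pdgfb to Pdgfrb, the last above 0 without western diet replicate 2. The cause was not tested. No paired analysis was possible because no label links a western diet mouse to a chow mouse. Counting error limits Pdgfd and Pdgfb most, with as few as 20 and 24 counts in a library.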
